A study of Mus musculus with 8 samples.

Results

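Regulators of G protein signalling (RGS proteins) were read in whole liver of male mice labelled Mdr2-/-. The 10 genes Rgs1, Rgs2, Rgs3, Rgs4, Rgs5, Rgs10, Rgs12, Rgs14, Rgs16 and Rgs19 were taken by their gene names from a deposited table of 30266 genes, and each name matched 1 row. Rgs16 was chosen by its read counts, which differ between the groups in these same libraries, and the other members were listed with results of the data known. Their differences between groups are therefore given as a description and not as evidence. All mice carried the Mdr2-/- genotype and were 8 weeks old. They were given PBS as vehicle or recombinant FGF21 (rFGF21) at 1.0 mg/kg, and the liver was taken 4 h later (4 samples per group). Mdr2 is an older name of Abcb4, whose product moves phospholipid into bile, and its loss gives mice a cholestatic liver disease. No wild-type liver enters the comparison, so every value below is from the mutant background. The title of the study concerns FGF21, FGFR4 and JNK in this injury.

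A G protein-coupled receptor switches on a G protein by loading its alpha subunit with GTP, and the signal ends when the alpha subunit hydrolyses that GTP. RGS proteins speed up the hydrolysis and so shorten the signals of receptors that couple to Gi and Gq alpha subunits. Small members of the R4 class (Rgs1, Rgs2, Rgs4, Rgs5 and Rgs16) are little more than the RGS domain, while Rgs12 and Rgs14 carry further signalling domains. In liver, Rgs16 is known as a gene of hepatocytes that follows feeding and glucose, Rgs5 marks pericytes and other mural cells, and Rgs1 is best known from lymphocytes and other leukocytes.

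The promoters of Rgs16, Rgs5 and Rgs2 are shown because Rgs16 differed most between the groups, whereas Rgs5 and Rgs2, the members with the most reads under PBS, differed little. Each is the stretch of 250 bases before the transcription start, 5′ to 3′ on the gene's strand, from RefSeq (GRCm38.p6), with the CCAAT box in capitals (ATTGG where it lies on the other strand). The Rgs16 stretch is chr1:153740103-153740352 (+ strand), that of Rgs5 chr1:169655251-169655500 (+ strand) and that of Rgs2 chr1:144004150-144004399 (- strand).
Rgs16: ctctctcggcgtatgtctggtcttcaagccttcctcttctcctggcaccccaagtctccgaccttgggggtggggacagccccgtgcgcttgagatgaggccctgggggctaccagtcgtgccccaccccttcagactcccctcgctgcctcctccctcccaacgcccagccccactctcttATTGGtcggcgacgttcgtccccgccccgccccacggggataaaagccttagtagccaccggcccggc
Rgs5: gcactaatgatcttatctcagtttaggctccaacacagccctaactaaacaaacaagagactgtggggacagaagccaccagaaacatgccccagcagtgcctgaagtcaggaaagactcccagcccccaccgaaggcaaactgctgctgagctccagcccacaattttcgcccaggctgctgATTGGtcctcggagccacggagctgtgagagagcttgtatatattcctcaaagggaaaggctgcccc
Rgs2: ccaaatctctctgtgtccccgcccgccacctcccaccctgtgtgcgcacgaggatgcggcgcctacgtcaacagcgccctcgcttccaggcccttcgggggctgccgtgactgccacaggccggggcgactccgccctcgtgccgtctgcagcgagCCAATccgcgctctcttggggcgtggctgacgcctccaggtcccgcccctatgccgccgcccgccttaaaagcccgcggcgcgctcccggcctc

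Windows of 300 bases (250 before to 50 after the start) were listed for 8 of the 10 members; Rgs1 and Rgs14 had none. They were searched on both strands for the E-box CACGTG, the cyclic AMP element TGACGTCA, the AP-1 element TGANTCA, the forkhead element GTAAACA and the ETS element CCGGAAGT. None of these 5 was found in the Rgs16, Rgs5 or Rgs2 window. Among the other members, 1 of 3 Rgs19 windows held CACGTG and 1 of 2 Rgs12 windows held TGANTCA. Over all 32851 windows of that length, CACGTG was found in 7.15%, TGACGTCA in 1.79%, TGANTCA in 7.81%, GTAAACA in 3.65% and CCGGAAGT in 3.89%. CCAAT was searched only after the promoters had been read. It was found in 4 of the 8 members (Rgs2, Rgs4, Rgs5 and Rgs16, each with 1 window) and in 37.4% of all windows. A count by gene and a share of windows are not alike, since Rgs3 and Rgs12 had 2 windows each and Rgs19 had 3, all without CCAAT. In Rgs16 its first base lay 68 bases before the start, and in Rgs5 67 bases before it.

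The 8 libraries held between 62756328 and 73313449 reads. Abcb4 transcripts were read at 337 to 424 CPM (reads scaled to library size) under PBS and at 372 to 441 CPM under rFGF21; the sources used here do not say which part of the gene is disrupted, so these counts do not check the genotype. The extraction protocol names retina as the tissue. The 8 hepatocyte markers summed to 63649 CPM or more in every library, while no reads fell on Crx and Rcvrn, defining genes of photoreceptors, in any of the 8 (0 reads allow up to 3 per library). Over all 18315 genes tested with edgeR's quasi-likelihood test, 516 were called at a Benjamini-Hochberg adjusted p under 0.05 (2.82%), 210 of them higher and 306 lower after rFGF21. Scaled by library totals only, the split was 257 higher and 178 lower (59.1% of calls higher, against 40.7%). At an unadjusted p under 0.05 in the edgeR test were 3440 of the 18315 genes, the background for every such count below. In a list of few genes, no call at all is near the share of 2.82%, so nothing is read from it. In rFGF21 library 5 the summed hepatocyte (63649 CPM), macrophage (402 CPM) and endothelial markers (88.8 CPM) and cyclic AMP target genes (1633 CPM) were the lowest of the 8 libraries. The summed neutrophil (15.4 CPM), cholangiocyte (368 CPM), stellate and pericyte (430 CPM) and T and NK cell markers (18.2 CPM) were the highest there. A sum leans on its most abundant genes, such as Alb among the hepatocyte markers (a mean of 53679 CPM under rFGF21). Tat, at 512 CPM in rFGF21 library 5, was counted in both the hepatocyte and the cyclic AMP sums. Values without this library are given below for Rgs16 and Rgs8.

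Rgs16 encodes a small RGS protein that acts on Gi and Gq alpha subunits (ENSMUSG00000026475, GRCm38 chromosome 1, 153740349 to 153745468, + strand, 5 exons in 1 annotated transcript). PBS libraries 1, 2, 4 and 5 held 420, 502, 598 and 469 Rgs16 reads. The rFGF21 libraries 1, 2, 3 and 5 held 2836, 3849, 2935 and 841 reads. On the scale of TMM-normalized CPM, Rgs16 was at 5.96, 7.89, 10.2 and 6.83 in PBS and at 37.8, 54.3, 40.2 and 11.1 in rFGF21 libraries. The groups did not overlap, but rFGF21 library 5 was only 1.09 times the highest PBS library, and the next rFGF21 library was 3.40 times library 5. Rgs16 averaged 7.73 ± 1.84 CPM under PBS against 35.8 ± 18.0 CPM under rFGF21 (mean ± SD, n = 4 per group, as for all CPM values with an error below), 4.64-fold apart in the edgeR fit, with a log2 fold change of 2.21 ± 0.39 (SE). With rFGF21 library 5 left out, the fit gave 2.51 ± 0.20.

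Rgs16 was the 1 of 10 members called higher, beside 1.15% of all tested genes, and the 1 member whose groups did not overlap, beside 12.3% of all tested genes. Since Rgs16 was picked for this contrast, nothing is read from either count. No member was called lower, beside 1.67% of all tested genes; Rgs1 was at an unadjusted p under 0.05, and DESeq2 called it lower. The edgeR call of Rgs16 was lost without PBS library 1 (log2 fold change 2.11 ± 0.44), PBS library 5 (2.17 ± 0.45) or rFGF21 library 1 (2.19 ± 0.43), and with limma voom (2.04 ± 0.52). It was also lost in the 6 libraries whose numbers occur in both groups, with the number as a block (2.08 ± 0.44) or without it (2.32 ± 0.48), and held in the other 11 of 17 alternatives. The log2 fold change itself lay between 1.95 and 2.51 in all 17 alternatives. An annotated antisense gene, Gm28513, overlaps the end of Rgs16 over 1917 bases, of which 236 are exonic in both genes, and had at most 5 reads in any library. The sources used here do not say whether the counting used strand, so reads within those 236 bases cannot be assigned to 1 gene of the pair.

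**Figure D1:**
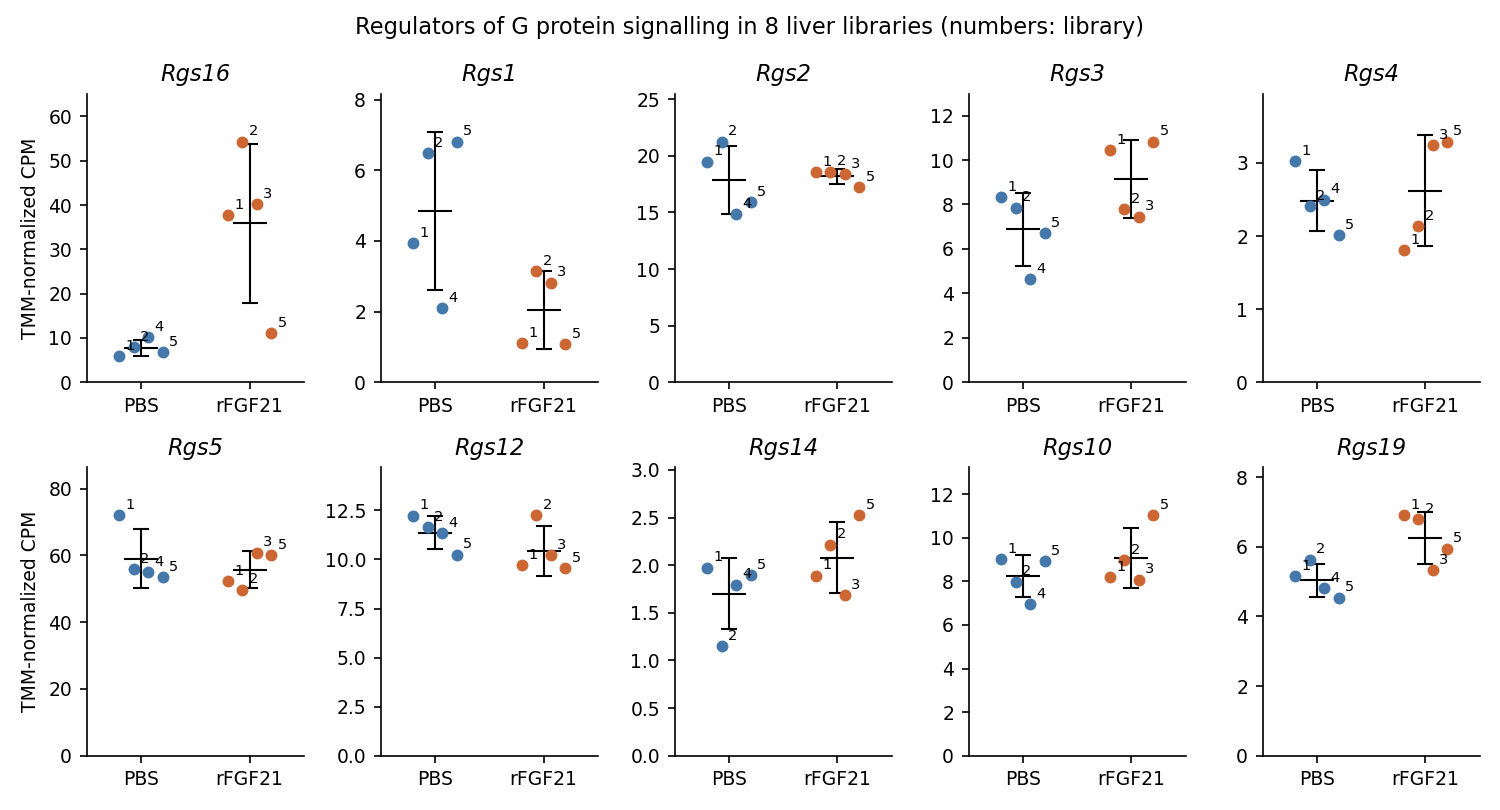
TMM-normalized CPM of each member (vertical axis, from 0) in the 4 PBS and 4 rFGF21 libraries; points are libraries with their number, bars are means ± SD. Rgs16 is at 5.96 to 10.2 CPM in PBS and at 37.8 to 54.3 CPM in 3 rFGF21 libraries, with rFGF21 library 5 at 11.1 CPM, while the groups of the other 9 members overlap.

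**Figure D2:**
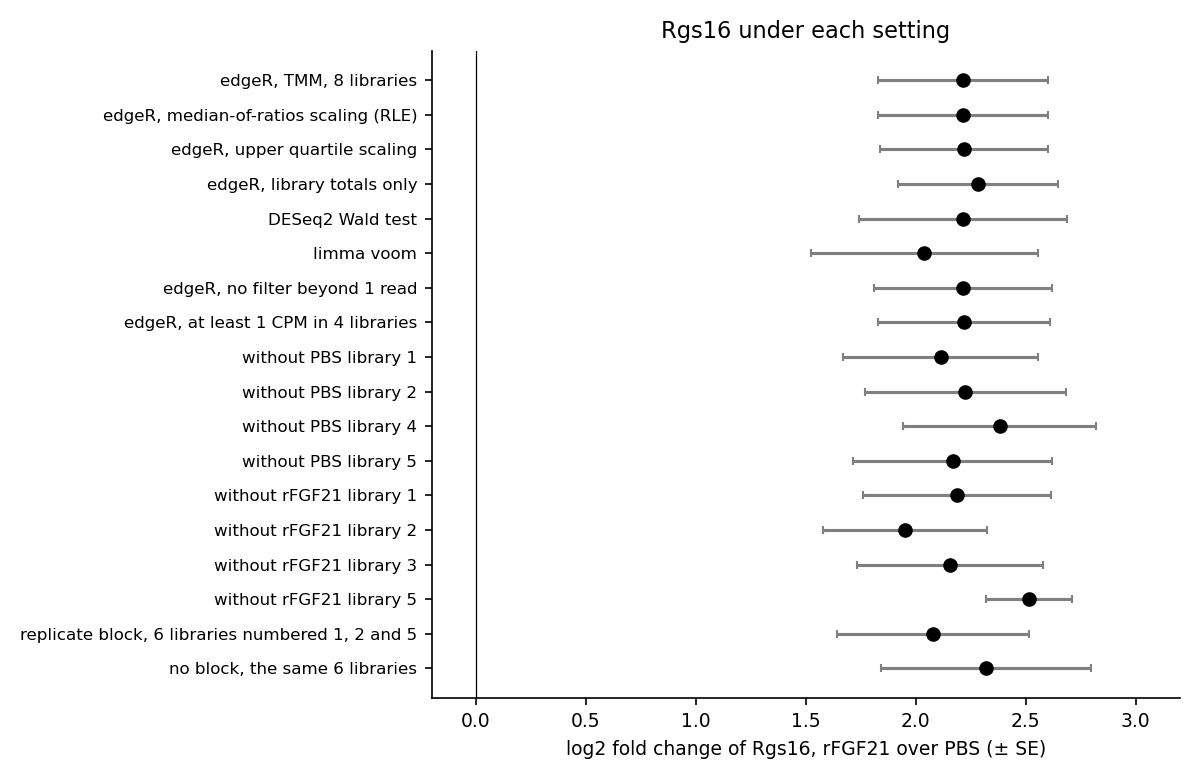
Log2 fold change of Rgs16, rFGF21 over PBS (horizontal axis, bars are ± SE), in the edgeR fit of 8 libraries and 17 alternatives. All values are above 0, between 1.95 and 2.51, and the SE is smallest without rFGF21 library 5.

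Among the other R4 members, Rgs1, which restrains chemokine receptor signals in leukocytes (ENSMUSG00000026358, chromosome 1, 144242296 to 144249242), had 278, 413, 122 and 468 reads in PBS libraries 1, 2, 4 and 5. It had 83, 223, 206 and 81 reads in rFGF21 libraries 1, 2, 3 and 5. PBS library 4 lay below rFGF21 libraries 2 and 3, so the groups overlapped. Rgs1 averaged 4.83 ± 2.24 CPM under PBS against 2.04 ± 1.10 CPM under rFGF21, a log2 fold change of -1.25 ± 0.45 (SE). This was the largest negative value among the members, and it was below 0 in all 17 alternatives (-1.84 to -1.03). Summed T and NK cell markers were at 15.0 to 16.4 CPM under PBS and 14.3 to 18.2 CPM under rFGF21, B cell markers at 5.87 to 7.50 and 5.01 to 7.04 CPM, and macrophage markers at 562 to 887 and 402 to 744 CPM. None of the 8, 5 and 8 tested genes of these lists was called by edgeR (1, 0 and 1 at an unadjusted p under 0.05), and none of their markers was at 0 in all libraries. Their part in the Rgs1 values was not tested. In whole tissue, fewer cells of a type and less RNA per cell cannot be told apart.

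Rgs5, the pericyte gene (ENSMUSG00000026678, chromosome 1, 169655501 to 169695813), had the most reads of the members summed over the libraries. It had 5078, 3550, 3212 and 3676 reads in the PBS libraries and 3922, 3525, 4443 and 4552 in the rFGF21 libraries, in the same order of libraries as above. Once scaled, rFGF21 libraries 3 and 5 lay inside the PBS range of 53.5 to 72.1 CPM and libraries 1 and 2 just below it. Rgs5 averaged 59.1 ± 8.7 CPM under PBS against 55.7 ± 5.6 CPM under rFGF21 (log2 fold change -0.08 ± 0.12, SE, and so in parentheses below), and its sign was positive without PBS library 1. Summed stellate, pericyte and smooth muscle markers were at 255 to 352 CPM under PBS and 312 to 430 CPM under rFGF21. Of these 10 markers none was called by edgeR, 2 were at an unadjusted p under 0.05, 8 had positive fold changes and none was at 0.

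Rgs4, which lies close to Rgs5 on chromosome 1 (169741477 to 169747642) and dampens Gi and Gq signals, had 136 to 249 reads. It averaged 2.48 ± 0.42 CPM under PBS against 2.62 ± 0.76 CPM under rFGF21 (0.08 ± 0.25), with a sign that turned in 5 alternatives. Rgs2, an RGS protein that prefers Gq alpha subunits (ENSMUSG00000026360, chromosome 1, 143999338 to 144004161), had 1373, 1352, 868 and 1095 reads in PBS and 1395, 1318, 1344 and 1304 in rFGF21 libraries. The rFGF21 libraries lay inside the PBS range, and the means were 17.9 ± 3.0 and 18.2 ± 0.6 CPM (0.03 ± 0.12). Its sign turned in 4 alternatives. Rgs3, a longer R4 member (chromosome 4, 62559847 to 62703018), had 272 to 587 reads in PBS and 544 to 819 in rFGF21 libraries. It was at 6.89 ± 1.64 and 9.13 ± 1.76 CPM (0.41 ± 0.20), with overlapping groups.

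Of the R12 class, Rgs12 and Rgs14 bind both Gi alpha subunits and small Ras-like GTPases, and Rgs10 is a short member known from leukocytes and platelets. Rgs12 (chromosome 5, 34949445 to 35039636) averaged 11.4 ± 0.8 CPM under PBS against 10.4 ± 1.3 CPM under rFGF21 (-0.12 ± 0.12). Rgs10 (chromosome 7, 128373621 to 128418758) was at 8.23 ± 0.97 and 9.07 ± 1.37 CPM (0.14 ± 0.15). Its highest library was rFGF21 library 5, at 11.0 CPM, the rFGF21 library in which Rgs16 was lowest. Rgs14 (chromosome 13, 55369732 to 55384687) had the fewest reads summed over the libraries, 73 to 191 in each, at 1.70 ± 0.38 and 2.08 ± 0.37 CPM (0.29 ± 0.24). In each of these 3 genes the groups overlapped. The gene Gm15503 lies on the same strand inside Rgs10 and had 6 to 44 reads.

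Rgs19, of the RZ class, acts on Gi alpha subunits (ENSMUSG00000002458, chromosome 2, 181688419 to 181693977). It had 364, 358, 282 and 312 reads in PBS and 519, 482, 390 and 450 reads in rFGF21 libraries. After scaling, 1 rFGF21 library (library 3, at 5.34 CPM) lay inside the PBS range of 4.54 to 5.63 CPM. The means were 5.04 ± 0.47 and 6.25 ± 0.74 CPM (0.31 ± 0.15), and the log2 fold change was positive in all 17 alternatives (0.26 to 0.39). No member was too low to judge by the rule used (removed by the filter on low counts, or under 0.5 CPM on average in both groups), nor at a threshold of 1 CPM. All 10 passed the filter. The median log2 fold change over the 10 was 0.11, beside 0.00 over all tested genes, with 7 values above 0 and 3 below.

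Levels between members were compared as CPM per kilobase (kb) of merged exons in GENCODE M21. Under PBS, Rgs5 was highest at 13.0 ± 1.9 CPM per kb, above Rgs2 (4.93 ± 0.83), Rgs10 (4.81 ± 0.57), Rgs16 (3.30 ± 0.79) and Rgs19 (2.26 ± 0.21). Rgs12 (1.34 ± 0.10), Rgs4 (0.80 ± 0.13), Rgs1 (0.70 ± 0.32), Rgs3 (0.64 ± 0.15) and Rgs14 (0.40 ± 0.09) followed. The library ranges were separate between Rgs5 and Rgs2, Rgs16 and Rgs19, Rgs19 and Rgs12, and Rgs12 and Rgs4, and overlapped between all other neighbours in this order. Under rFGF21, Rgs16 had the highest mean level at 15.3 ± 7.7 CPM per kb, with 16.1, 23.2, 17.2 and 4.75 CPM per kb in libraries 1, 2, 3 and 5. Its range held that of Rgs5 (12.3 ± 1.2 CPM per kb) whole, so the order of these 2 genes is not separated. In library 5 taken alone, Rgs5 stood at 13.2 CPM per kb and Rgs16 at 4.75 CPM per kb. Divided by the longest coding transcript instead, Rgs10 (9.35 CPM per kb) and Rgs19 (3.34 CPM per kb) stood above Rgs16 under PBS, which took rank 5 in place of 4, and Rgs16 kept rank 1 under rFGF21.

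As a share of the summed CPM per kb of the 10 members, Rgs16 made up 10.4 ± 3.1% under PBS (7.16 to 14.5%) and 33.0 ± 13.7% under rFGF21 (13.3 to 45.2%). The share in rFGF21 library 5 was 13.3%, within the PBS range. The share of Rgs5 was 40.3 ± 3.1% under PBS and 28.3 ± 6.6% under rFGF21. Without Rgs16 the other 9 members summed to 28.9 ± 3.2 CPM per kb under PBS and 29.1 ± 1.5 CPM per kb under rFGF21, with overlapping ranges (25.7 to 33.0 and 27.8 to 31.1).

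**Figure D3:**
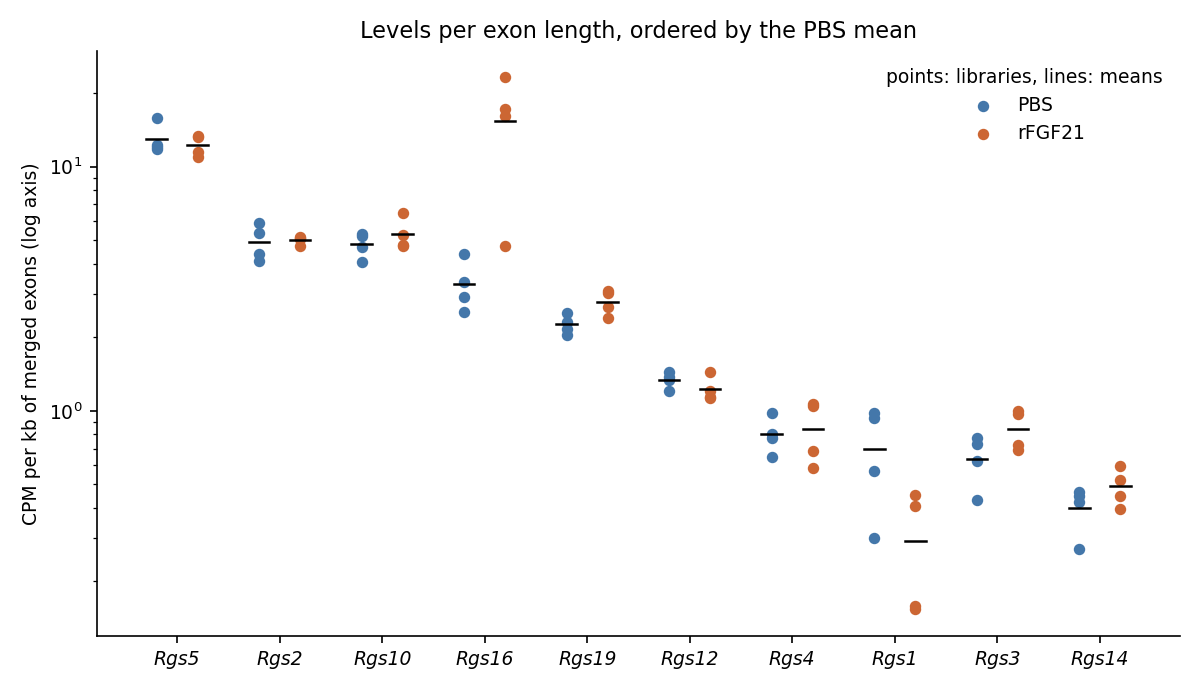
CPM per kb of merged exons of the 10 members (vertical log axis), ordered by the PBS mean; points are libraries and lines are group means. Rgs5 leads under PBS at 11.8 to 15.9 CPM per kb, and Rgs16 spans 4.75 to 23.2 CPM per kb under rFGF21.

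The table also held 11 other Rgs genes and genes of Rgs-binding proteins; Rgs13, Rgs21 and Rgsl1 were not analysed here. Of these 11, 6 were too low to judge (Rgs6, Rgs7, Rgs17, Rgs20, Rgs22 and Rgs9bp). The 4 that the filter removed (Rgs6, Rgs17, Rgs20 and Rgs22) had at most 14 reads in any library. None of the 7 tested was called by edgeR, beside 2.82% of all tested genes, and none was at an unadjusted p under 0.05. Rgs11, a partner of the beta subunit Gnb5, had the most reads, at 2.08 ± 0.27 CPM under PBS against 2.82 ± 1.33 CPM under rFGF21 (0.44 ± 0.31). None of 9 other genes with an RGS homology domain was called either, beside the same 2.82%, and none was at an unadjusted p under 0.05. These include Axin1, a scaffold of the Wnt pathway, at 25.0 ± 0.6 and 26.5 ± 1.6 CPM, and the exchange factor gene Arhgef11 (-0.13 ± 0.10). The median log2 fold change was 0.44 over the 7 tested Rgs and Rgs-binding genes, most of them low, and 0.00 over the 9 with an RGS homology domain.

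The list of 13 G protein alpha subunit genes also holds classes other than Gi and Gq. By edgeR 1 was lower and none higher, beside 1.67% and 1.15% of all tested genes, and 3 were at an unadjusted p under 0.05. Gna12, of the G12 class, averaged 143 ± 13.8 CPM under PBS against 106 ± 5.5 CPM under rFGF21 (-0.44 ± 0.09, edgeR adjusted p = 0.0393). Its call was lost without any 1 library except PBS library 4 (edgeR adjusted p 0.0678 to 0.123). It was also lost with scaling by library totals (-0.36 ± 0.11, edgeR adjusted p = 0.117) and without the filter on low counts (edgeR adjusted p = 0.071). The Gi gene Gnai3 (0.20 ± 0.09) and the Gq-class gene Gna15 (0.77 ± 0.24) did not pass. None of 12 tested beta and gamma subunit genes passed, beside 2.82% of all tested genes (1 at an unadjusted p under 0.05, Gng12 at 0.25 ± 0.08). Nor did any of 6 modulators such as the exchange factors Ric8a and Ric8b (1 at an unadjusted p under 0.05). Median log2 fold changes were 0.11 for alpha subunits, 0.21 for beta and gamma subunits and 0.23 for modulators.

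Among 37 tested receptor genes, 3 were higher and 6 lower, beside 1.15% and 1.67% of all tested genes. At an unadjusted p under 0.05 were 21 of the 37, beside 3440 of all 18315 tested genes. The list was drawn up with the values of some of its genes known. The lower ones were Adra1a and Adra1b, the alpha-1 adrenergic receptors that couple to Gq, and Agtr1a, the angiotensin II receptor. The adenosine A1 receptor gene Adora1, the vasoactive intestinal peptide receptor gene Vipr1 and Gpr146 were also lower. Adra1a averaged 1.65 ± 0.53 CPM under PBS against 0.25 ± 0.11 CPM under rFGF21 (-2.73 ± 0.38, edgeR adjusted p = 0.00732). Adra1b, with far more reads, was at 59.7 ± 12.5 and 36.7 ± 2.9 CPM (-0.70 ± 0.13, edgeR adjusted p = 0.0251). Agtr1a (-0.49 ± 0.09), Gpr146 (-0.54 ± 0.10), Adora1 (-0.45 ± 0.10) and Vipr1 (-0.63 ± 0.14) differed by less than 1 on the log2 scale. The median over the 37 receptor genes was 0.22.

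The higher receptor genes were F2rl1, a receptor cleaved by trypsin-like proteases (3.76 ± 1.00 to 7.73 ± 1.25 CPM, 1.04 ± 0.20), S1pr2, a receptor for sphingosine 1-phosphate and conjugated bile acids (15.0 ± 2.7 to 23.1 ± 2.3 CPM, 0.62 ± 0.14), and Cx3cr1, the fractalkine receptor of monocytes and macrophages (0.80 ± 0.18). Among cell type markers, 6 of 6 tested cholangiocyte genes had positive fold changes (median 0.62, 5 at an unadjusted p under 0.05, none called by edgeR; summed 171 to 265 CPM under PBS and 237 to 368 CPM under rFGF21). The 6 tested neutrophil genes were likewise all positive (median 0.79, 2 at an unadjusted p under 0.05, none called by edgeR; summed 4.28 to 9.28 and 6.38 to 15.4 CPM). The 5 tested red blood cell genes were also all positive (median 0.54, 3 at an unadjusted p under 0.05, none called by edgeR). Of the 8 tested macrophage genes, 3 were positive and 5 negative (median -0.37). The part of these cell types in the higher receptor values was not tested. Adra1a kept its call whichever library was left out. Adora1 kept it only without PBS library 5, Vipr1 and S1pr2 only without PBS library 2, and Cx3cr1 only without rFGF21 library 3 (edgeR adjusted p 0.0505 to 0.12 in the fits that lost these calls). Scaled by library totals, Adora1, Vipr1, S1pr2 and Cx3cr1 lost their calls as well (edgeR adjusted p 0.052 to 0.0801). Without the filter on low counts, Adra1a was the 1 of these 9 receptor genes to keep its call (edgeR adjusted p 0.0508 to 0.0947 for the other 8). Gpr146 kept it only on removal of PBS library 4 or rFGF21 library 2 (otherwise 0.0519 to 0.0708), and Agtr1a on removal of PBS library 1, PBS library 4 or rFGF21 library 1 (otherwise 0.0528 to 0.0754). Adra1b kept it on removal of PBS library 2, PBS library 4, PBS library 5 or rFGF21 library 2 (otherwise 0.0559 to 0.0865), and F2rl1 on removal of PBS library 2 or rFGF21 library 2 (otherwise 0.0532 to 0.0824).

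Downstream of the receptors, none of 13 tested adenylyl cyclase and phospholipase C beta genes passed (3 at an unadjusted p under 0.05). Nor did any of 11 receptor kinase and arrestin genes (5 at an unadjusted p under 0.05). Over all tested genes 2.82% passed, so nothing is read from the absence of calls in these short lists. Arrdc3, an arrestin-domain gene, averaged 33.0 ± 23.5 CPM under PBS against 149 ± 108 CPM under rFGF21 (2.17 ± 0.57, edgeR adjusted p = 0.0724). Median log2 fold changes were 0.09 for the cyclases and phospholipases and 0.25 for the kinases and arrestins. Over all lists of this report, DESeq2 called 11 pathway genes higher and 13 lower, where edgeR called 3 and 9. Over all tested genes DESeq2 called 703 higher and 824 lower, where edgeR called 210 and 306.

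Target genes of 2 inputs known to act on hepatocytes were read beside Rgs16. Of 15 targets of cyclic AMP, 7 were at an unadjusted p under 0.05, beside 3440 of all 18315 tested genes. By edgeR 1 was called lower and none higher, beside 1.67% and 1.15% of all tested genes. The called gene was Dusp1, a phosphatase of MAP kinases, at 41.2 ± 13.1 CPM under PBS against 15.5 ± 4.4 CPM under rFGF21 (-1.41 ± 0.26, edgeR adjusted p = 0.0222). The Dusp1 call was lost on removal of library 1 or library 5 of either group (edgeR adjusted p 0.0529 to 0.0719) and without the filter on low counts (edgeR adjusted p = 0.0525). The list's median log2 fold change was -0.67. Its summed level was lowest in rFGF21 library 5, at 1633 CPM; the ranges were 4982 to 8309 CPM under PBS and 1633 to 6293 CPM under rFGF21, which overlap. That library also had the lowest Rgs16 value of its group. Of 14 targets of ChREBP, the glucose-responsive factor of which Rgs16 is known as a target, 7 were at an unadjusted p under 0.05, and 1 was called lower and none higher, beside the same background. This was Klf10, at 17.7 ± 3.0 CPM under PBS against 9.88 ± 0.36 CPM under rFGF21 (-0.84 ± 0.13, edgeR adjusted p = 0.0103), and the call held whichever library was left out. Summed ChREBP targets were at 3670 to 3923 CPM under PBS and 2938 to 3075 CPM under rFGF21, with a median log2 fold change of -0.29.

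**Figure D4:**
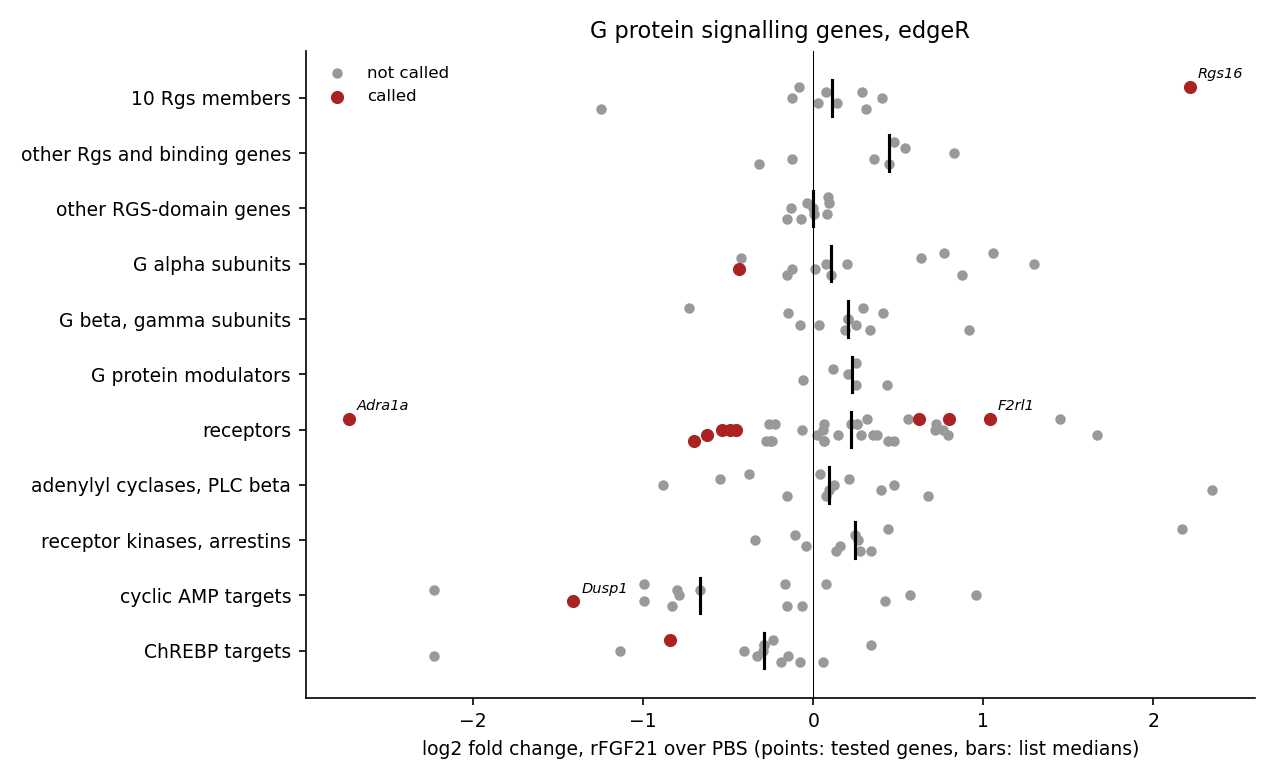
Log2 fold change, rFGF21 over PBS (horizontal axis), of each tested gene in the members and 10 lists (rows); points are genes, red where the edgeR adjusted p is under 0.05, and black bars are list medians. Rgs16 stands at 2.21, away from the other members, and 9 of 37 receptor genes are red.

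Rgs16 lies in a stretch of chromosome 1 with Rgs8, another R4 member, upstream and the gene of glutamine synthetase, Glul, downstream. The table held 20 genes within 300 kb of Rgs16, of which 7 were tested. None was higher and 1 was lower, Glul, whose gap to Rgs16 is 154 kb, beside 1.67% of all tested genes called lower. Glul stood at 255, 226, 261 and 289 CPM in PBS libraries 1, 2, 4 and 5 and at 151, 130, 175 and 170 CPM in rFGF21 libraries 1, 2, 3 and 5, without overlap (-0.72 ± 0.12, edgeR adjusted p = 0.0138). Glul lost its call without rFGF21 library 1 (edgeR adjusted p = 0.0581) and with the replicate block (edgeR adjusted p = 0.0785). Rgs8, with a gap of 40.0 kb, had 8 to 87 reads and was at 0.36 ± 0.15 and 0.50 ± 0.45 CPM (0.48 ± 0.63), with the highest value in rFGF21 library 5 and a negative sign without that library (-0.32). Npl, a sialic acid lyase gene, was at 6.10 ± 0.97 and 8.30 ± 1.11 CPM (0.44 ± 0.16). The helicase gene Dhx9 (0.11 ± 0.13) and the pseudogene Gm6652 (-0.67 ± 0.25) were not called. The sign of the low gene Teddm2 (-0.23 ± 0.59) turned in 2 alternatives. Within 1000 kb the table held 32 genes, 14 of them tested, and Glul remained the 1 called.

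**Figure D5:**
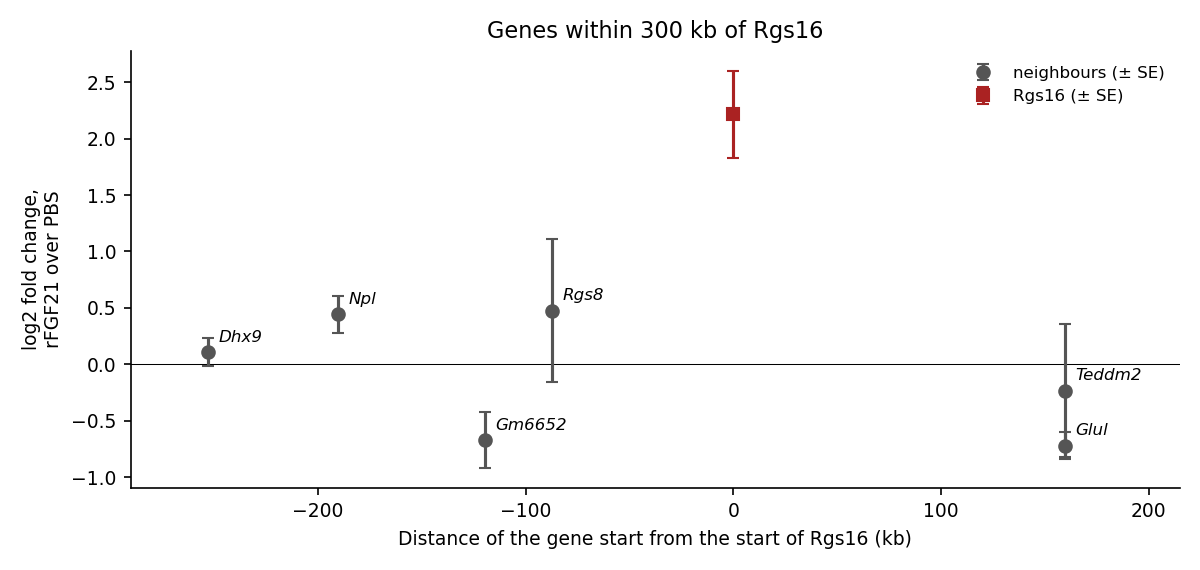
Log2 fold change, rFGF21 over PBS (vertical axis, bars are ± SE), of 6 of the 7 tested genes within 300 kb of Rgs16, by the distance of their start from that of Rgs16 in kb (horizontal axis). Rgs16 (square) is at 2.21, and Glul, 160 kb downstream, is at -0.72.

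The genes whose level followed that of Rgs16 most closely were sought among 12792 genes with a mean of at least 1 CPM, by Pearson's r of log2 CPM over the 8 libraries, which share the treatment contrast. The highest r belonged to Nfkbia, which encodes an inhibitor of NF-kappaB (0.984), followed by Tbc1d15 (0.966), Rnf185 (0.965), Nostrin (0.964) and Gcnt2 (0.957). Nfkbia was at 40.1, 41.8, 42.8 and 41.1 CPM in PBS libraries 1, 2, 4 and 5 and at 51.8, 56.0, 52.9 and 46.6 CPM in rFGF21 libraries 1, 2, 3 and 5. Library 2 was the highest and library 5 the lowest rFGF21 library for both genes, and the 8 libraries ranked in the same order for both. The range of Nfkbia was narrow, with a log2 fold change of 0.32 ± 0.08. The lowest r were those of Hnrnpl (-0.961), Ccdc157 (-0.958), Acat1 (-0.952), Foxn3 (-0.951) and Aifm3 (-0.949).

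With the group means subtracted, which removes the contrast that singled Rgs16 out, Nfkbia was again first (0.976), before Rp9 (0.974), Sardh (0.958) and Mfsd2a (0.957). Bag2 (-0.981), Rtn1 (-0.980), Kitl (-0.968), Gem (-0.963) and Gpm6b (-0.961) were at the other end. Between the groups, Rp9 (-0.22 ± 0.10), Sardh (-0.54 ± 0.11) and Mfsd2a (-2.64 ± 0.73) had negative log2 fold changes, opposite to Rgs16. Nfkbia and the genes named at the other end had positive ones. Of these genes, only Sardh was called by edgeR. Mfsd2a, a lysophospholipid transporter gene, was at 0.12 CPM in rFGF21 library 5 against a group mean of 1.80 ± 1.68 CPM, and Gpm6b was at 8.28 CPM there against 4.46 ± 2.60 CPM. Rgs16 itself was lowest of its group in rFGF21 library 5, at 11.1 CPM. Bag2, Rtn1, Kitl, Gem, Gpm6b and Rgs10 had their highest value in that library. Nfkbia, Rp9, Sardh and Mfsd2a had their lowest value of that group in it. These values of r therefore lean on 1 library, and none was computed without it. With 8 libraries and 12792 genes, high values of r arise in any such search, and these are given as a description. Among the members, the correlation with Rgs16 after subtracting group means ran from 0.514 for Rgs12 to -0.817 for Rgs10, and over the 8 libraries as they are from 0.710 for Rgs19 to -0.478 for Rgs5.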

How the data were processed

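Whole-liver RNA of 4 PBS and 4 rFGF21 samples was sequenced. The deposited table gives a whole-number read count for each gene in each library, as its header states. The submitters' processing notes list Bowtie 0.12.2 and, as the build, mm8. The coordinates are not of mm8, since 27285 of 30177 genes (90.4%) had identical coordinates in GENCODE M21 (GRCm38), 8 of the 10 members among them (Rgs3 and Rgs12 differed at 1 end). The sources used here name no counting tool or strand setting.

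The 4 count columns per group that also have FPKM values were used. Of the other columns of values, 10 were not used (2 of counts, which have no FPKM values, and 8 of FPKM). The FPKM columns could not be tied to single samples, and neither could the count columns that were used. Levels per length, planned on FPKM, were computed from the counts and exon lengths of GENCODE M21, matched by gene ID for 10 of 10 members. Column numbers could not be tied to sample numbers, so libraries are named by group and column number. The labels do not call the samples separate animals; the p-values then measure only the spread among them. The lowest chi-square per degree of freedom between any pair of libraries was 47.1, so all 8 differed by more than sampling noise.

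Counts were filtered (filterByExpr), scaled (TMM) and tested with edgeR 4.0.16 in R 4.3.3 (glmQLFit, glmQLFTest, two-sided, no covariates), adjusted by Benjamini-Hochberg over 18315 genes, with a threshold of 0.05. DESeq2 1.42.0 and voom in limma 3.58.1 were alternatives, as were other scalings, filters and leaving out each library. Every log2 fold change is of rFGF21 relative to PBS. Correlations used a prior count of 2. The steps were tested on simulated data. The members and lists were chosen with earlier results of these data known. Named were all members, up to 4 genes with the smallest p and all called genes of each list, the neighbours of Rgs16 and the 5 genes at each end of each correlation, less 1 neighbour and 1 correlated gene not reported here; Rgs11, Crx, Rcvrn and the CCAAT box were added after the values were seen.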

Additional observations from a re-analysis of the deposited data

Results flagged for a closer look

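Within groups of 4 libraries, 56 groups of 28 named genes were searched for a library whose gap to its nearest neighbour was over 0.829 of the group's range, a distance that chance passes in about 1 of 20 groups; 5 were found. Rgs2 was lowest in rFGF21 library 5, at 17.2 CPM, with the other 3 rFGF21 libraries between 18.4 and 18.6 CPM. Rgs5 was highest in PBS library 1, at 72.1 CPM, with the next at 55.8 CPM. Adra1a was highest in PBS library 2, at 2.44 CPM (next 1.43), and Adra1b in PBS library 4, at 78.2 CPM (next 55.6). Dhx9, a helicase gene upstream of Rgs16, was highest in rFGF21 library 5, at 80.4 CPM (next 72.2). For Rgs16, rFGF21 library 5 did not pass this criterion.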

How the results depend on the processing

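Rgs16, Rgs3, Rgs10, Rgs14 and Rgs19 were above 0, and Rgs1 and Rgs12 below 0, in all 17 alternatives. Leaving out 1 library each, the log2 fold change of Rgs2 ran from -0.051 (without PBS library 4) to 0.119, and was -0.017 without PBS library 5. Rgs4 ran from -0.052 (without rFGF21 library 5) to 0.218, and was -0.0037 and -0.043 without PBS library 5 and rFGF21 library 3. Rgs5 ran from -0.128 to 0.031 (without PBS library 1), Rgs8 from -0.322 (without rFGF21 library 5) to 0.814, and Teddm2 from -0.477 to 0.235 (without PBS library 2; 0.013 without rFGF21 library 3).

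Leaving out 1 library each also gave 0 to 1 members higher, 0 lower, 51 to 198 genes higher and 80 to 288 lower, and 0 to 2 pathway genes higher and 2 to 8 lower, against 3 and 9. DESeq2 called 703 genes higher and 824 lower, 1 member lower (Rgs1) and 11 pathway genes higher. Without the filter on low counts 85 were higher and 113 lower, with 0 and 2 pathway genes, and at 1 CPM in 4 libraries 5 pathway genes were higher. Library totals gave 178 lower, and limma voom 0 members higher.

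The numbers 1, 2 and 5 occur in both groups, but same-numbered libraries did not deviate together (correlations 0.065, -0.036 and -0.099). With these numbers as a replicate block (6 libraries), 7 genes were higher and 5 lower, with 0 members and 0 pathway genes in either direction; Rgs2 was at -0.049 and Rgs4 at -0.067. Without the block, chosen after seeing the data, the same 6 libraries gave 116 and 165 genes, 0 members, and 1 pathway gene higher and 5 lower, with Rgs2 at -0.058 and Rgs4 at -0.039. Fewer samples enter these fits; the cause of the other changes was not tested. Spearman's rho in place of Pearson's r kept 1 of the 10 genes most like Rgs16 over the 8 libraries and 2 of 10 with group means subtracted; a prior count of 0.5 kept all 10. By the longest coding transcript, also chosen after seeing the data, Rgs16 ranked 5 under PBS. The fits on FPKM were not run, as those columns were not used, nor the order by lengths in the table, which gives none. Members with few reads, such as Rgs14, have the widest counting error.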
